A study of Mus musculus with 16 samples.

Results

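Emx2, Pax2 and Sim1 encode transcription factors of the embryo, and their loci were described here through the histone marks of mouse mesenchymal stem cells (MSCs) with and without Dicer. Members were the peaks of 24 deposited lists that overlap 3 windows of the mm9 genome. The windows were chr19:59515000-59555000 for Emx2, chr19:44820000-44925000 for Pax2 and chr10:50600000-50700000 for Sim1, of 40, 105 and 100 kb. They held 75 of the 289751 peaks in all lists, of which 17 lay at Emx2, 41 at Pax2 and 17 at Sim1. The loci were selected on their listed peaks of these same libraries, as Polycomb-marked regulators whose patterns differed between the genotypes. The differences below are therefore descriptions and carry no test.

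Knockout (KO) lines lacked Dicer (genotype Dicer -/-) and were set against lines with floxed, intact Dicer (Dicer f/f, written WT). All were immortalized monoclonal MSC lines of C57BL/6 mice, grown in serum-containing medium, and the labels do not say how many clones each genotype had or whether replicates were separate cultures. Chromatin was precipitated with antibodies against 3 marks in 2 replicates per genotype, which gave 12 libraries. Each library had 2 lists. One held its peaks over whole-cell extract, and the difference list is read here as peaks stronger than in the other genotype. Dicer is the ribonuclease that matures microRNAs, and the series title concerns the microRNA family let-7 and a developmental program that it represses.

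Emx2 is a homeodomain factor that patterns the cerebral cortex and is needed for the urogenital tract. Pax2 is a paired-box factor of the kidney, the optic nerve and the boundary of midbrain and hindbrain. Sim1 is a basic helix-loop-helix PAS factor needed for neuroendocrine neurons of the hypothalamus. Genes of this kind are classic targets of Polycomb repressive complex 2, which writes H3K27me3 over CpG-rich promoters in cells that do not use them. H3K4me3 marks active and poised promoters, and H3K36me3 is laid down over gene bodies during transcription. A promoter with H3K4me3 inside H3K27me3 is called bivalent.

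Since CpG-rich promoters are the usual seat of both H3K4me3 and H3K27me3, the 250 bases before a start site of each gene are shown, with every CG dinucleotide in capitals. They were taken from RefSeq on build GRCm38.p6 by gene symbol, and all 3 genes (gene IDs 13797, 18504 and 20464) were matched. The Emx2 window is chr19:59458440-59458689, the Pax2 window, the third of its start sites, is chr19:44756656-44756905, and the Sim1 window is chr10:50895401-50895650, all on the plus strand.
Emx2: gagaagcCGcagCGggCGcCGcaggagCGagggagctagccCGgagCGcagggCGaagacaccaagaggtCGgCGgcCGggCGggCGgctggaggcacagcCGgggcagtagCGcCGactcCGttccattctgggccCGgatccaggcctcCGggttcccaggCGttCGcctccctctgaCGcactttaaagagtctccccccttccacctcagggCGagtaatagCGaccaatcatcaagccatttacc
Pax2: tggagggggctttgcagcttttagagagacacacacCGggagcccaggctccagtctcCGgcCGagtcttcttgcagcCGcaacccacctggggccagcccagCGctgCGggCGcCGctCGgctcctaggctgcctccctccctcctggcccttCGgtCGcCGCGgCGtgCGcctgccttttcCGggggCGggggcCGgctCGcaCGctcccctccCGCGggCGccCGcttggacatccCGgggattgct
Sim1: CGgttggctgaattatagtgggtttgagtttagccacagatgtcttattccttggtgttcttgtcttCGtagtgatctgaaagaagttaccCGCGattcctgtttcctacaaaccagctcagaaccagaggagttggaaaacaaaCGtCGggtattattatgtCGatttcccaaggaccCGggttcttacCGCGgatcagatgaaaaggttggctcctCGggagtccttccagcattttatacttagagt
The Emx2 window held 24 CG and 67.2% G or C, and 12% of 32841 RefSeq promoter windows of the same length held as many. The Pax2 window held 25 CG and 72.8% G or C, a number reached by 10.7% of the windows, while the other 2 Pax2 start sites had 5 and 20. The Sim1 window held 11 CG and 45.6% G or C, reached by 35.6%, against a median of 6 CG over all windows. CG reads the same on both strands. These positions belong to another build than the peaks and were not converted, so no peak below was placed on a start site or an exon.

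The 3 loci differed in which mark was listed in which genotype. At Emx2 the KO lists had less H3K4me3 and no H3K36me3, and H3K27me3 was listed in KO replicate 2 alone. At Sim1 a wide H3K27me3 domain was listed in both WT libraries and in neither KO library. At Pax2 all 4 H3K27me3 libraries listed peaks, shorter in KO than in WT at the same replicate number.

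**Figure D1:**
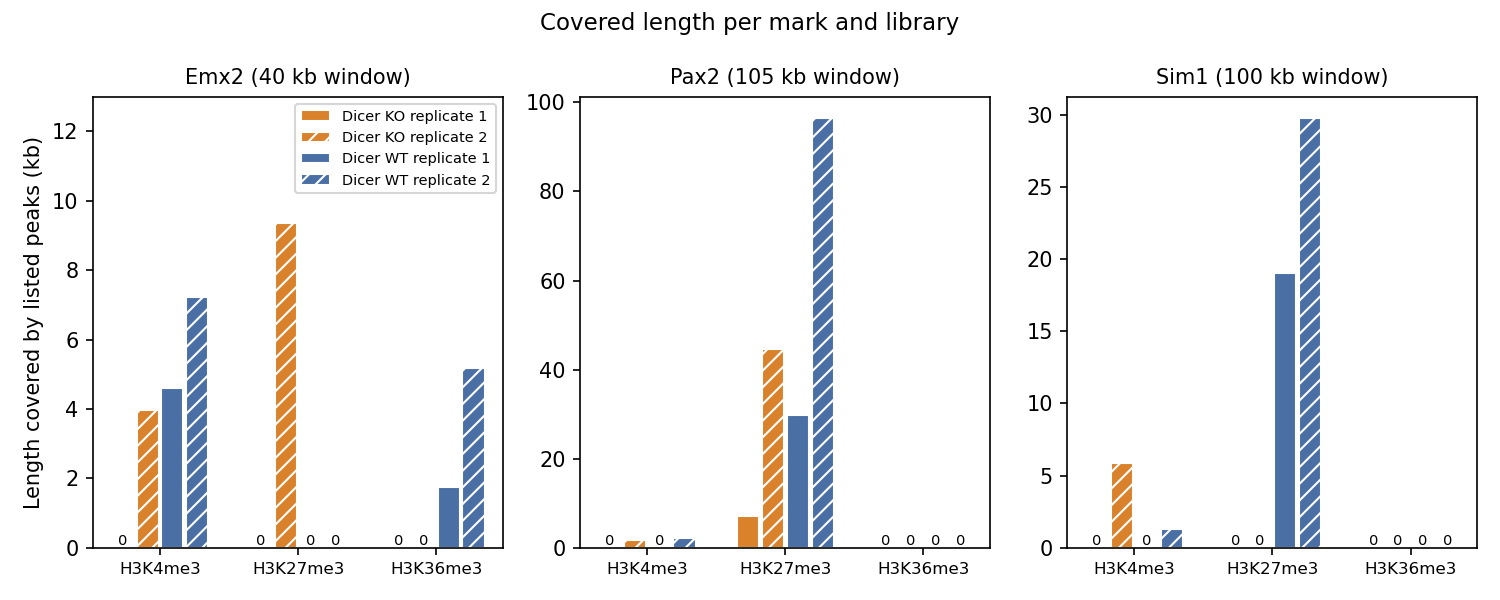
Length in kb covered by peaks against whole-cell extract in the Emx2, Pax2 and Sim1 windows, with 1 bar per library for H3K4me3, H3K27me3 and H3K36me3. KO bars stand left of WT bars, replicate 2 is hatched, zeros are written as 0, and the vertical scales differ between loci. At Sim1 H3K27me3 was 0 in both KO libraries, and the WT libraries lay above 0.

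The lists differ in length, which bears on every value here. H3K27me3 KO replicate 1 listed 706 peaks over 0.737 Mb, against 2562 to 17516 peaks and 4.68 to 38.0 Mb in the other 3 H3K27me3 libraries. H3K4me3 libraries listed 12744 to 23851 peaks and H3K36me3 libraries 33417 to 38683, and in each mark and genotype replicate 2 covered more length. The peak scores are the authors' own, start at 80, and stand at 3100 for 5144 to 10401 H3K4me3 peaks per library. Read depths are unknown. The authors number the peaks of each list from 1, and 0 numbers were missing from any of the 24 lists. A peak that is missing from a list was not detected at that library's depth, which is not the same as an absent mark. The cell type label was not checked against marker genes, since no mm9 annotation was used.

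At Emx2, H3K4me3 was listed over less length in KO than in WT. The covered length was 0 and 3964 bp in KO replicates 1 and 2, against 4606 and 7233 bp in WT replicates 1 and 2. Both KO values lay below both WT values, so the groups did not overlap, although KO replicate 2 and WT replicate 1 lay close together. How often H3K4me3 lengths fall in this order over the genome is not given here. The means were 1.98 ± 2.80 kb in KO and 5.92 ± 1.86 kb in WT (SD, n = 2 each), a difference of -3.94 kb. The difference was -1955.5 bp without KO replicate 1, -5919.5 bp without KO replicate 2 and -2624 bp without WT replicate 2. Over whole lists the order was the opposite, as KO lists covered 1.29 times the WT length in replicate 1 and 1.20 times in replicate 2.

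The Emx2 signal came from 1 main region, chr19:59530611-59536628, which was 6018 bp wide. The peaks nested: the KO replicate 2 peak, chr19:59531614-59535577, lay wholly inside the WT replicate 1 peak, chr19:59531123-59535728, and that one inside the WT replicate 2 peak. All 3 had the score 3100, so their heights could not be ranked. By width the KO replicate 2 peak was number 2293 in its list, while the WT peaks were numbers 267 and 363 in theirs. The difference lists held this region in both WT replicates and in neither KO replicate. Of all 25204 H3K4me3 regions, 1.12% were WT-higher in both replicates. This share covers regions of all widths, while the Emx2 region was number 530 by width. A wide region can meet a difference peak more easily than a narrow one. A pattern of listing in every library but KO replicate 1 was found at 1.92% of regions.

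A second Emx2 region of 1215 bp, chr19:59541832-59543046, was listed in WT replicate 2 alone and was WT-higher in that replicate, as were 3.95% of H3K4me3 regions in replicate 2 and not in replicate 1. KO replicate 1 listed H3K4me3 peaks beside the window. In the 100 kb before and after it, KO covered 4257 and 1369 bp in replicate 1 and 6535 and 2025 bp in replicate 2. The same flanks held 4956 and 966 bp in WT replicate 1 and 7387 and 2095 bp in WT replicate 2. Flanking H3K4me3 was thus listed in all 4 libraries, while the Emx2 region was missing from KO replicate 1.

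H3K27me3 at Emx2 was listed in KO replicate 2 and in no other library. It covered 0 and 9347 bp in KO replicates 1 and 2, and 0 bp in both WT replicates. The means were 4.67 ± 6.61 kb in KO and 0 kb in WT (SD, n = 2 each), so the difference rested on 1 library and the groups overlapped at 0. It was 9347 bp without KO replicate 1, 0 bp without KO replicate 2 and 2641 bp with lists scaled to the mean list length. The main peak, chr19:59528796-59535798, was 7003 bp wide with a score of 2145, number 344 of 17516 peaks by width and number 98 by score. A peak of 2343 bp lay further on at chr19:59539334-59541676, and another of 1122 bp reached into the window by 1 bp.

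The 3 H3K27me3 regions at Emx2 were KO-higher in replicate 2 and not in replicate 1. Such calls were made at 13.4% of all 24016 H3K27me3 regions, and 40.6% were listed in KO replicate 2 and no other library. Listing in that library alone was therefore common. In the 100 kb before the Emx2 window H3K27me3 covered 17738 bp in KO replicate 2, against 17037 bp in WT replicate 2, which listed none within the window. In the 100 kb after it, KO replicate 2 had 9680 bp and the other 3 libraries 0 bp.

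In KO replicate 2 the marks H3K4me3 and H3K27me3 lay on the same bases at Emx2. The whole 3964 bp H3K4me3 peak fell inside the 7003 bp H3K27me3 peak, and no WT library had both marks there. The lists do not say whether the same cells or alleles carried both. Set across genotypes, the H3K27me3 peaks of KO replicate 2 covered 100% of the H3K4me3 of WT replicate 1 and 71.7% of that of WT replicate 2.

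H3K36me3 at Emx2 was listed in WT only. Both KO replicates had 0 bp, against 1767 and 5170 bp in WT replicates 1 and 2, with means of 0 kb in KO and 3.47 ± 2.41 kb in WT (SD, n = 2 each). The WT peaks, chr19:59538048-59539814 and chr19:59535892-59541061, were nested and followed the H3K4me3 region, which the longer one overlapped by 737 bp. The region was WT-higher in both replicates, as were 1.24% of 39794 H3K36me3 regions, and 7.18% were listed in both WT libraries and in neither KO library. The call was lost where difference peaks had to cover at least 50% of a region, since WT replicate 1 listed 1767 of its 5170 bp. The difference of -3.47 kb was -1767 bp without WT replicate 2, and it was -6519.5 bp in a window wider by 20 kb on each side. Over whole H3K36me3 lists KO also covered less, 0.804 times the WT length in replicate 1 and 0.624 times in replicate 2. With lists scaled to the mean list length, the difference at Emx2 was -2748 bp. Towards lower coordinates the 100 kb flank held 0 bp in both KO replicates, against 1327 and 6115 bp in WT. In GRCm38.p6 the gene next to Emx2 on that side is Emx2os, its antisense RNA, and the peaks carry no strand.

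The combination at Emx2 was compared with the rest of the genome by count. Of 283 H3K4me3 regions that were WT-higher in both replicates, 36 (12.7%) overlapped an H3K27me3 region that was KO-higher in replicate 2. Only 5 of the 283 (1.77%) also lay within 10 kb of an H3K36me3 region WT-higher in both replicates, and the Emx2 region was 1 of them. These counts use the same contrast that chose the locus and are not evidence for it.

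**Figure D2:**
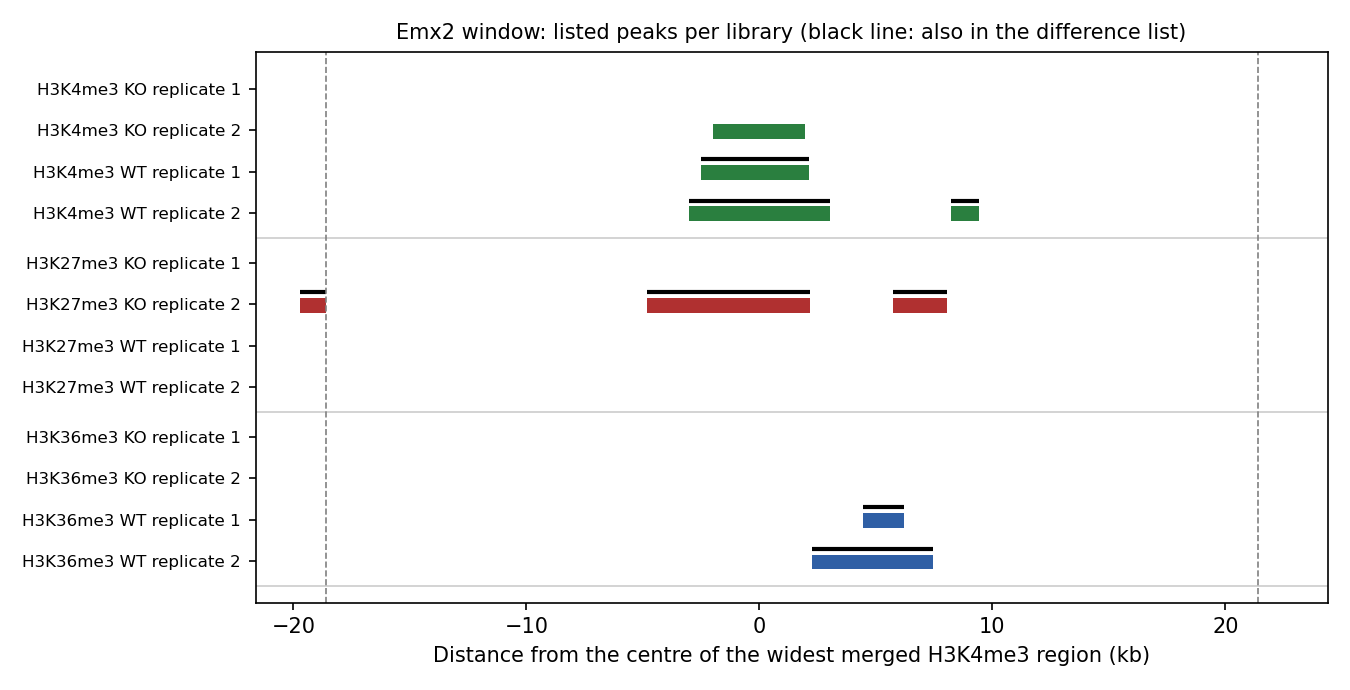
Peaks in the Emx2 window, drawn to scale in kb from the centre of its main H3K4me3 region, with a row for each library and KO rows above WT rows of the same mark. Coloured bars are peaks against whole-cell extract, black lines mark peaks also in the difference list, and dashed lines are the window edges. The H3K27me3 bar of KO replicate 2 spans 7003 bp and takes in the H3K4me3 peak of 3964 bp in KO replicate 2.

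At Sim1 the H3K27me3 domain was listed in WT and not in KO. Covered lengths were 0 bp in both KO replicates, against 19040 and 29763 bp in WT replicates 1 and 2. The means were 0 kb in KO and 24.4 ± 7.58 kb in WT (SD, n = 2 each), a difference of -24.4 kb, and the groups did not overlap. With every list scaled to the mean list length, the difference was -47205.5 bp. A KO value of 0 stays 0 in any scaling, and the larger difference came from WT replicate 1, whose short list covered 4.68 Mb. For KO replicate 1 the list as a whole was short. The list of KO replicate 2 covered 34.4 Mb of the genome, 0.906 times the length of WT replicate 2. Whether list length or read depth bears on the missing domain was not tested. KO replicate 2 listed 923 bp of H3K27me3 in the 100 kb after the window, with the nearest peak 8.42 kb from its edge.

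The domain was the region chr10:50608537-50634701, 26165 bp wide and number 35 of 24016 by width. WT replicate 2 listed it as 1 peak over its whole width. WT replicate 1 listed it as 4 peaks, the widest being chr10:50611705-50625662 with 13958 bp, the eighth widest of 2562 in that list. Every H3K27me3 base of WT replicate 1 in the window, 19040 bp, was also covered in WT replicate 2. Outside the domain, WT replicate 2 listed small regions of 687, 1720 and 1191 bp.

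Of the 4 H3K27me3 regions at Sim1, the domain was WT-higher in both replicates, 1 was WT-higher in replicate 2 alone and 2 had no call. Over all H3K27me3 regions, 3.76% were WT-higher in both replicates, 17.2% in replicate 2 and not in replicate 1, and 1.57% were listed in both WT libraries and neither KO library. These shares cover regions of all widths, while the domain was number 35 by width. A wide region can meet a difference peak more easily than a narrow one. Of 904 regions WT-higher in both replicates, 280 (31%) were listed in neither KO library, and 5 (0.553%) were in addition at least 20 kb wide, the Sim1 domain among them.

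H3K4me3 at Sim1 was longer in KO in replicate 2 and was not listed in replicate 1 of either genotype. Covered lengths were 0 and 5856 bp in KO replicates 1 and 2, against 0 and 1340 bp in WT replicates 1 and 2. The ratio in replicate 2 was 4.37, beside 1.20 for the whole lists, but the means of 2.93 ± 4.14 kb in KO and 0.67 ± 0.948 kb in WT overlapped (SD, n = 2 each). The difference of means was 2258 bp, and it was -670 bp without KO replicate 2 and 5186 bp without KO replicate 1. The KO replicate 2 peak, chr10:50613530-50618589, was 5060 bp wide with a score of 3100. The WT replicate 2 peak inside it, chr10:50613816-50615155, was 1340 bp wide with a score of 395 in its own list. A further KO replicate 2 peak of 796 bp had a score of 115 and no call.

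The wide H3K4me3 region was KO-higher in replicate 2 and not in replicate 1, as were 12.9% of H3K4me3 regions. In KO replicate 2 the 5856 bp of H3K4me3 had no H3K27me3, and 100% of it fell on bases listed for H3K27me3 in both WT libraries. In WT replicate 2 the H3K4me3 peak lay wholly inside the H3K27me3 domain, so both marks were listed on 1340 bp. Of 3257 H3K4me3 regions KO-higher in replicate 2 alone, 76 (2.33%) overlapped an H3K27me3 region WT-higher in both replicates. At 16 of these 76, or 0.491% of the 3257, no overlapping H3K27me3 region was listed in KO, and the Sim1 region was among them.

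H3K36me3 was listed nowhere in the Sim1 window, in either genotype. Before the window, on the side where Ascc3 lies in GRCm38.p6, the 100 kb flank held 5121 and 8555 bp in KO, against 6656 and 27464 bp in WT. The nearest H3K36me3 peak ended 24.3 to 26.1 kb from the window in all 4 libraries. H3K4me3 covered nothing in either flank in any library.

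**Figure D3:**
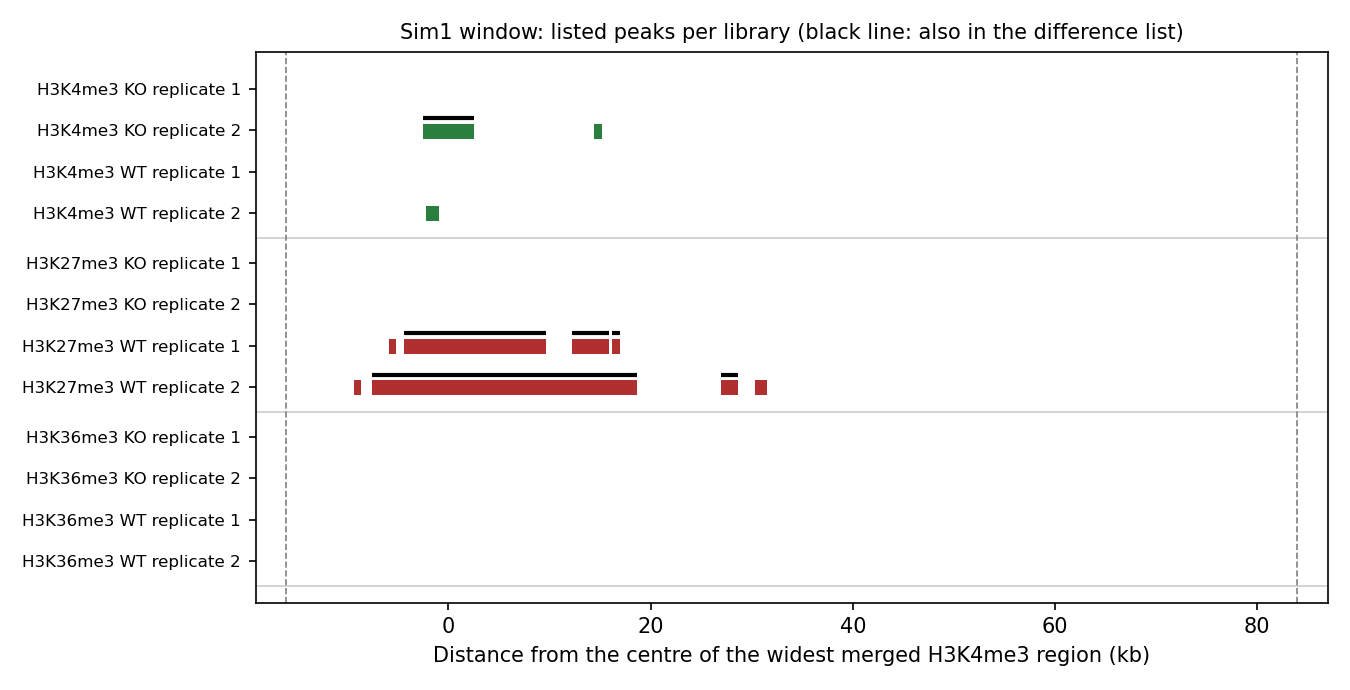
Peaks in the Sim1 window, to scale in kb from the centre of its wider H3K4me3 region, with 1 row per library and KO rows above WT rows of the same mark. Coloured bars are peaks against whole-cell extract, black lines mark peaks also in the difference list, and dashed lines are the window edges. H3K27me3 bars stand only in the WT rows, and the H3K4me3 bar of KO replicate 2 (5060 bp) is longer than that of WT replicate 2 (1340 bp).

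At Pax2 all 4 libraries listed H3K27me3, and at either replicate number the KO peaks covered less than the WT peaks. Covered lengths were 7148 and 44598 bp in KO replicates 1 and 2, against 29904 and 96472 bp in WT replicates 1 and 2. KO replicate 2 lay above WT replicate 1, so the genotypes overlapped, with means of 25.9 ± 26.5 kb in KO and 63.2 ± 47.1 kb in WT (SD, n = 2 each). At the same replicate number the KO length was 23.9% of the WT length in replicate 1 and 46.2% in replicate 2. The difference of the means, -37.3 kb, was smaller than the pooled SD of 38190 bp. Leaving out 1 library gave -18590 bp without KO replicate 1, -56040 bp without KO replicate 2, -70599 bp without WT replicate 1 and -4031 bp without WT replicate 2.

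The direction at Pax2 turned when each length was taken as a share of its list. The window held 0.970% and 0.130% of the covered length of KO replicates 1 and 2, against 0.639% and 0.254% for WT replicates 1 and 2. KO replicate 1 had the highest share: its whole list covered 0.737 Mb, and 7 of its 706 peaks (0.992%) lay here. The share was lower in KO than in WT in replicate 2 but higher in replicate 1. At Sim1 the shares were 0% in both KO libraries, against 0.407% and 0.0784% in WT.

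**Figure D4:**
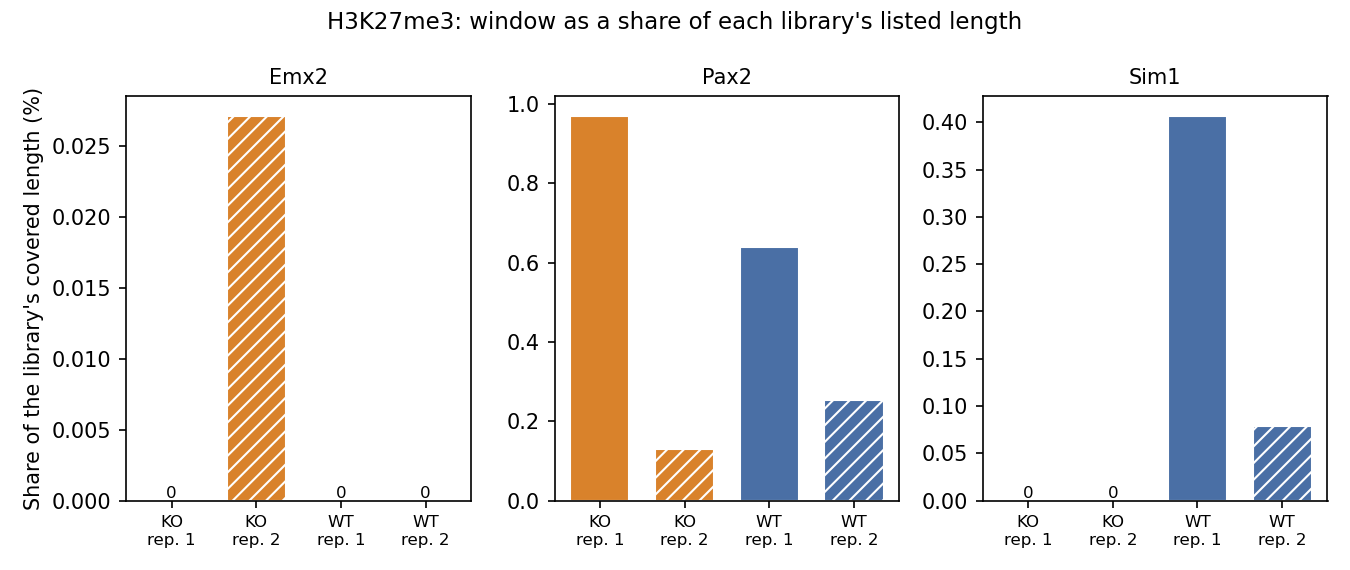
H3K27me3 length in each window as a percentage of all H3K27me3 length in the same list, with 1 bar per library, KO left of WT and replicate 2 hatched. The vertical scales differ between loci. At Pax2 KO replicate 1 is highest with 0.970%, whereas at Sim1 both KO bars are 0.

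The Pax2 domain was broken into more peaks in KO, with a shorter longest peak than in WT at the same replicate number. KO replicate 1 had 7 peaks of at most 1517 bp and KO replicate 2 had 14 of at most 24095 bp, against 5 of at most 24040 bp in WT replicate 1 and 6 of at most 46626 bp in WT replicate 2. Over whole lists KO replicate 2 also held more peaks over less length, 17516 over 34.4 Mb, against 14955 over 38.0 Mb in WT replicate 2. KO replicate 1 held 706 over 0.737 Mb, against 2562 over 4.68 Mb in WT replicate 1. Whether the break-up at Pax2 goes beyond these list differences was not tested. All H3K27me3 bases of both KO libraries in the window were also covered in WT replicate 2. Of the KO bases, WT replicate 1 covered 87.2% for KO replicate 1 and 60.3% for KO replicate 2. All 4 lists shared 6231 bp, or 5.93% of the window, and 8.12% was covered by none.

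Merging the lists gave 6 H3K27me3 regions at Pax2. The first, chr19:44805439-44842899, ran beyond the window edge. Its 37461 bp held 7241 and 25136 bp in the KO lists, against 27363 and 37461 bp in the WT lists. Of the 6 it alone was WT-higher in both replicates, set against 3.76% of all H3K27me3 regions. It was also listed in all 4 libraries, as were 0.858% of regions. Both shares cover regions of all widths, while this region was number 8 by width. Such a wide region can meet the peaks of any list more easily than a narrow one. Of the 4 peaks against whole-cell extract that crossed an edge of any window, 3 belonged to this region, and the other was the 1122 bp peak at Emx2.

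The widest Pax2 region, chr19:44869905-44916530, spanned 46626 bp and was number 4 of all H3K27me3 regions by width. Of it, KO replicates 1 and 2 covered 917 and 21379 bp, against 11531 and 46626 bp for WT replicates 1 and 2. It was WT-higher in replicate 1 alone, from difference peaks over 9279 bp. Such a call was made at 0.262% of regions of all widths, and a wide region can meet a difference peak more easily than a narrow one. Between these, chr19:44848059-44861735 (13677 bp) had 0 and 3887 bp in the KO lists, against 0 and 13677 bp in the WT lists, and no call. The neighbouring chr19:44861743-44868288 was listed over its 6546 bp in WT replicate 2 alone. It and regions of 3604 and 3120 bp were WT-higher in that replicate only.

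H3K4me3 at Pax2 was seen in replicate 2 of KO and of WT, and replicate 1 of neither genotype listed it. Covered lengths were 0 and 1847 bp in KO replicates 1 and 2, against 0 and 2204 bp in WT replicates 1 and 2. The KO peak, chr19:44829998-44831844, lay inside the WT peak, chr19:44829871-44832074, and no difference list held either. This listing pattern was found at 10.8% of H3K4me3 regions. Both peaks lay wholly inside H3K27me3 of the same library, so Pax2 had both marks on the same bases in replicate 2 of both genotypes. H3K36me3 was listed nowhere in the Pax2 window.

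**Figure D5:**
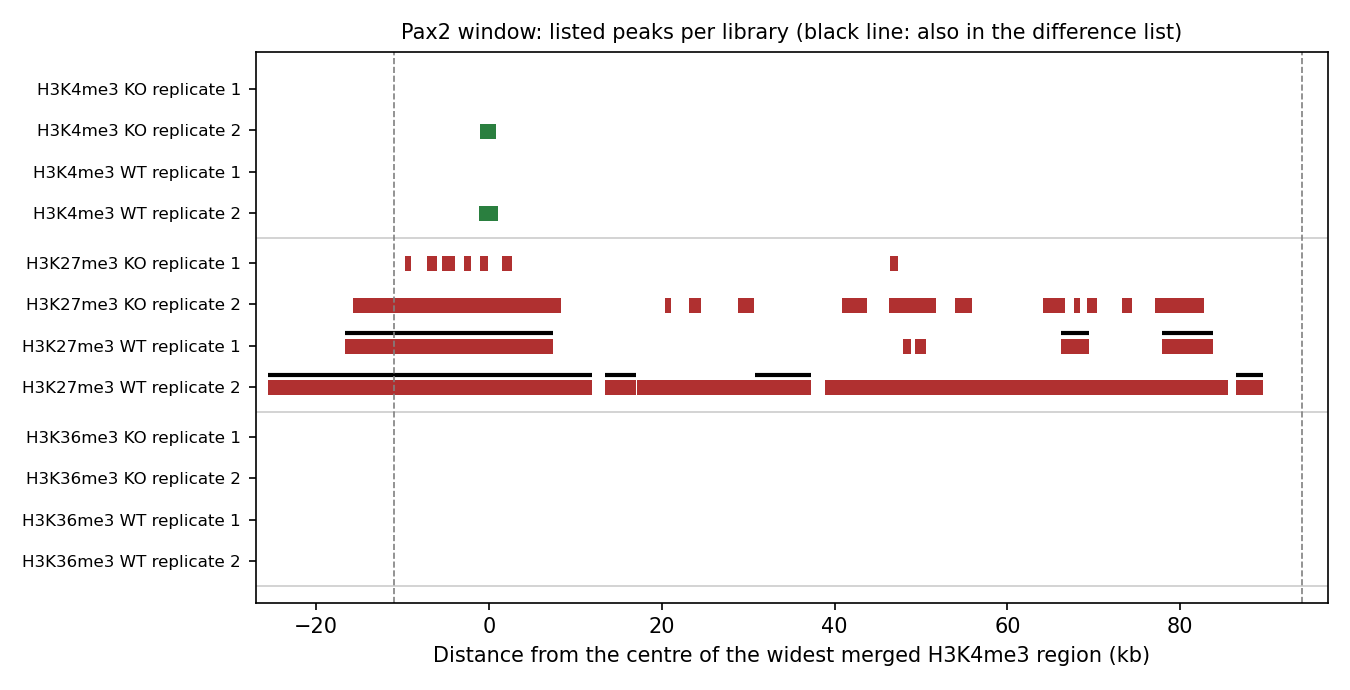
Peaks in the Pax2 window, to scale in kb from the centre of its H3K4me3 region, with 1 row per library and KO rows above WT rows of the same mark. Coloured bars are peaks against whole-cell extract, black lines mark peaks also in the difference list, and dashed lines are the window edges. H3K27me3 appears in all 4 libraries as 7 and 14 peaks in KO and 5 and 6 peaks in WT.

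Across the loci, all 21 difference peaks matched, base for base, a peak of the same library against whole-cell extract. Whether this holds throughout the difference lists was not examined, so it is no trait of these loci. No region was called towards KO in one replicate and towards WT in the other. The share of such regions over the genome is not given here. For H3K27me3 there was little room for them, as the difference list of KO replicate 1 held 113 peaks. KO replicate 1 listed H3K4me3 at none of the 3 loci, and WT replicate 1 listed it at Emx2 only. No KO library listed H3K36me3 at any of the loci, and the WT libraries listed it at Emx2 only. Overlap of H3K4me3 and H3K27me3 within a library occurred at Emx2 in KO replicate 2, at Sim1 in WT replicate 2, and at Pax2 in replicate 2 of both.

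Windows elsewhere in the genome with the most similar coverage were found by tiling chromosomes 1 to 19 and X at each locus's own width. Likeness was the mean absolute difference in covered share over the 12 lists, so a smaller value is closer. For Sim1 the closest of 26350 tiles was chr16:94000001-94100000 at 0.966 percentage points, with H3K27me3 over 0 bp in both KO lists, against 16968 and 24864 bp in WT. Its H3K4me3 covered 1287 and 3080 bp in KO, against 0 and 1894 bp in WT. The next were chr9:69600001-69700000 and chr14:49200001-49300000, at 1.17 and 1.27 points.

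For Emx2 the closest of 65890 tiles were chr8:34680001-34720000, chr8:26600001-26640000 and chr6:5960001-6000000, at 2.74, 2.77 and 2.91 points. All 3 listed H3K27me3 in KO replicate 2 alone, over 6885 to 11740 bp, and none listed H3K36me3 in WT replicate 1, which Emx2 did. In the same order, their H3K36me3 covered 5187, 0 and 3591 bp in WT replicate 2, against 5170 bp at Emx2. Their H3K4me3 covered 2333, 0 and 0 bp in KO replicate 1, against 0 bp at Emx2. For Pax2 the closest of 25093 tiles were chr7:86625001-86730000, chr4:116550001-116655000 and chr11:96390001-96495000, at 2.78, 3.81 and 4.05 points. Their H3K27me3 covered 856 to 3922 bp in KO replicate 1 and 41267 to 56913 bp in KO replicate 2, against 12306 to 27370 bp and 73848 to 86624 bp in WT replicates 1 and 2. No gene was assigned to any tile.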

How the data were processed

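Histone marks were measured by ChIP-seq in 12 libraries of MSC lines, with 3 marks, 2 genotypes and 2 replicates each, grouped and numbered by their titles. The 4 whole-cell extract samples had no file here. The submitters' processing notes name Bowtie 0.12.7, MACS (no version) and the build mm9. For every library the authors deposited 2 peak lists, 1 against whole-cell extract and 1 of differences. Each peak has a score, deposited by the authors, with no formula stated. No source used here names what the difference lists were called against; taking it to be the other genotype sets the direction of every call. Lists were called per library, and depth is unknown.

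Peaks that overlap a window by at least 1 bp were clipped to it and their union measured in bp, with starts counted from 1. Regions are the merged peaks of the 4 lists of a mark on chromosomes 1 to 19 and X, and a region counted as higher in KO or WT, per replicate, where it met that library's difference peaks. Means carry the SD of 2 replicates. No test was run: the loci were chosen on this contrast, and nothing says that replicates were separate cultures. The windows and lists were chosen with earlier results of these data known. The planned lists of other regulators and of cell type markers needed an mm9 annotation and were not used. Named regions were those of at least 5 kb or called one way in both replicates, with the 3 most similar tiles per locus, and other regions given with coordinates were named after their values were seen. Python 3.11.15 with numpy and matplotlib was used, and the interval functions were tested on simulated data with 200 seeded regions. Alternatives were another score minimum, whole peaks, a stricter overlap, wider windows, scaling by list length, joined regions and leaving out libraries.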

Additional observations from a re-analysis of the deposited data

How the results depend on the processing

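No paired analysis was possible because the results come from no test. Libraries with the same replicate number were set side by side as values only. The KO minus WT difference in covered length was recomputed in 9 ways for the 7 pairs of locus and mark with any peak. Of the 63 values, 54 moved by less than the pooled SD between replicates, of which 3 changed sign. With 2 replicates, leaving out 1 library cannot move a difference by more than the pooled SD. For those values the bound was fixed in advance, so the count of 54 is no measure of stability. Scaling every list to the mean list length turned the Pax2 H3K27me3 difference to 20115.4 bp, against -37315 bp as reported, and moved that of Sim1 to -47205.5 bp, against -24401.5 bp. In that scaling KO replicate 1, the shortest list, had the highest value at Pax2. At Sim1 the KO values stayed 0, and the larger difference came from WT replicate 1, whose list was shorter than that of WT replicate 2. Windows wider by 20 kb on each side moved Emx2 H3K36me3 to -6519.5 bp, against -3468.5 bp.

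Leaving out 1 library at a time gave ranges of -5919.5 to -1955.5 bp for Emx2 H3K4me3, 0 to 9347 bp for Emx2 H3K27me3 and -5170 to -1767 bp for Emx2 H3K36me3. The Emx2 H3K27me3 value was 0 bp without KO replicate 2. For Sim1 the ranges were -29763 to -19040 bp for H3K27me3 and -670 to 5186 bp for H3K4me3, which turned to -670 bp without KO replicate 2. For Pax2 they were -70599 to -4031 bp for H3K27me3 (-70599 bp without WT replicate 1 and -4031 bp without WT replicate 2) and -1280.5 to 923.5 bp for H3K4me3. The last turned to 745 bp without KO replicate 1 and to 923.5 bp without WT replicate 2.

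Of 45 recomputed counts of regions called one way, 37 stayed within 1.5 times the reported count. The 37 include every count of H3K36me3 at Pax2 and at Sim1, which had no region and could not change. The counts of Pax2 H3K4me3 could not change either, as no difference list held a peak there. Emx2 H3K27me3 and Sim1 H3K4me3 had difference peaks in KO replicate 2 alone. Their counts could therefore rise only where replicate 2 was taken by itself. Requiring difference peaks over at least 50% of a region left 0 at Emx2 H3K36me3, against 1, and joining regions across gaps of 1 kb gave 2 at Pax2 H3K27me3, against 1. Calls in 1 replicate alone, an alternative chosen after seeing the data, gave 1 to 2 regions at Emx2 H3K4me3, 0 to 3 at Emx2 H3K27me3, 2 to 4 at Pax2 H3K27me3, 0 to 1 at Sim1 H3K4me3 and 1 to 2 at Sim1 H3K27me3. A score of at least 160 for peaks or difference peaks, whole peaks, and peaks with at least 50% of their length in the window changed no direction. Without read counts, a weak mark in a shallow library and a missing mark cannot be told apart.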

Other observations

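After the Pax2 window, H3K36me3 in the 100 kb flank covered 17982 and 17869 bp in KO replicates 1 and 2, against 18144 and 0 bp in WT replicates 1 and 2. The other 3 libraries listed similar lengths, and the list of WT replicate 2, the longest of that mark, held none there, its nearest peak being 153 kb from the window edge. The authors' peak numbers run on across this gap. The region before Pax2 carried H3K27me3 over 1010 and 24057 bp in KO, against 33131 and 77564 bp in WT. Both KO values lay below both WT values there, whereas KO replicate 2 lay above WT replicate 1 inside the window. Over whole H3K27me3 lists KO covered 0.157 times the WT length in replicate 1 and 0.906 times in replicate 2. How often this order occurs over the genome is not given here, so it is no trait of this flank.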
